A study of Mus musculus with 15 samples.

Results

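Microglia of 2 groups of control mice were compared, neither of which had undergone tamoxifen-induced deletion of *Tgfbr2*. The members were chosen by their labels: 6 arrays of +/+ TAM mice and 3 arrays of Cre/+ OIL mice, 9 of the 15 arrays of the study. All mice were C57BL/6, carried floxed alleles of *Tgfbr2* (Tgfbr2 fl/fl) and the *R26-yfp* reporter, and were injected at 6 to 8 weeks of age. The +/+ TAM mice lacked the Cre allele and received tamoxifen, given as 8 mg in corn oil at a pair of time points 48 h apart. The Cre/+ OIL mice carried the inducible recombinase CreERT2 in 1 copy of *Cx3cr1* and received corn oil without tamoxifen. The groups therefore differed in the knock-in and in the drug at once, and the parts of the 2 cannot be told apart. The remaining 6 arrays, of Cre/+ TAM mice, carried the knock-in, received tamoxifen and are deleted for *Tgfbr2*, and they entered here only for the estimate of the spread and as values set alongside. Per the labels, cells of all 3 groups were sorted as CD11b+/CD45low 4 weeks after the injections, whereas the text of the study, which describes an RNA-seq readout, names this gate for +/+ TAM and a YFP+/CD45low gate for Cre/+ TAM. That text names no gate for Cre/+ OIL. RNA was read on Affymetrix Mouse Gene 2.0 ST arrays.

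CreERT2 is a recombinase fused to a modified estrogen receptor, which keeps it out of the nucleus until tamoxifen binds. *Cx3cr1* encodes the fractalkine receptor, by which microglia sense neuronal fractalkine, and its promoter drives CreERT2 in microglia and in other mononuclear phagocytes. Tamoxifen itself binds estrogen receptors and is known to interfere with cholesterol synthesis. A comparison of Cre-free mice given the drug with Cre mice given the vehicle therefore reads the background against which a deletion is measured.

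Single mice are named here by group and replicate in the order of deposit, as OIL 1 to OIL 3 for Cre/+ OIL and TAM 1 to TAM 6 for +/+ TAM, an order that carries no meaning. The array titles of OIL 1, OIL 2 and TAM 3 contain the word neg, for which no explanation was found in the labels or the methods. The animal numbers in the titles fall into 2 ranges, the lower with OIL 1 to OIL 3 and TAM 1 to TAM 3 and the higher with TAM 4 to TAM 6. The median log2 signal of an array was 4.35 to 4.40 for OIL 1 to OIL 3, and the +/+ TAM arrays had 4.36 to 4.55. OIL 3 stood apart in neutrophil transcripts. The mean log2 signal of 14 neutrophil markers was 4.07 in OIL 1, 4.04 in OIL 2 and 5.98 in OIL 3. It was 4.06 to 4.45 in 5 +/+ TAM mice and 5.50 in TAM 2. *S100a8*, a calcium-binding protein abundant in neutrophils, had a log2 signal of 8.55 in OIL 3 and 8.22 in TAM 2, against 2.39 and 2.37 in the other Cre/+ OIL mice and a median of 3.09 in +/+ TAM. In bulk RNA, more cells of a type and more RNA per cell cannot be told apart.

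No gene passed the test between the 2 control groups after adjustment over all clusters. Of 32471 transcript clusters with a gene symbol, 0 (0%) passed limma at a Benjamini-Hochberg adjusted p under 0.05, and the smallest adjusted p was 0.758. At an unadjusted p under 0.05 there were 1695 clusters (5.22%), of which 969 (2.98%) were higher and 726 (2.24%) lower in +/+ TAM. With each array centred on its median this split was 516 higher and 1298 lower, and after quantile normalization it was 847 and 828. The unpaired test of the methods on the same 9 arrays gave 724 higher and 517 lower at an unadjusted p under 0.05, and its smallest adjusted p was 0.996. The study called genes at a p under 0.05 together with a 2-fold change, and does not say whether p was adjusted. With the unadjusted p used here, 10 clusters (0.0308%) were higher and 16 (0.0493%) lower by this threshold. The 95% interval of the difference lay within 1 on the log2 scale, a 2-fold change, for 97% of the clusters and within 0.5 for 61.8%.

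Within the lower range of animal numbers, 3 mice against 3, 19 clusters were higher and 13 lower by the 2-fold threshold, and with the range as a block 23 and 11. Within the lower range, which holds all 3 Cre/+ OIL mice, the log2 differences were -2.01 for *Hspa1a*, -2.78 for *Hspa1b*, 1.27 for *Mir18*, 1.02 for *Mir340* and 0.25 for *Cx3cr1*.

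The threshold counts rested on single Cre/+ OIL mice. Without OIL 3 they were 87 higher and 40 lower, without OIL 1 they were 16 and 12, and without OIL 2 they were 20 and 23. With OIL 3 as the only Cre/+ OIL array, after leaving out the arrays with neg, 3 clusters were called lower in +/+ TAM, namely *Gm11505*, *Ly6c2*, a monocyte surface protein, and *Psg23*. *Gm11505* had a log2 signal of 7.78 in OIL 3, 4.43 in OIL 1 and 4.11 in OIL 2, and of 4.21, 4.37 and 4.69 (lowest, median and highest) in +/+ TAM. *Ly6c2* had 5.03 in OIL 3, 2.72 in OIL 1 and 2.43 in OIL 2, and 2.23, 2.60 and 3.24 in +/+ TAM. For these genes the single mouse OIL 3 lay above every other mouse of both groups.

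**Figure D1:**
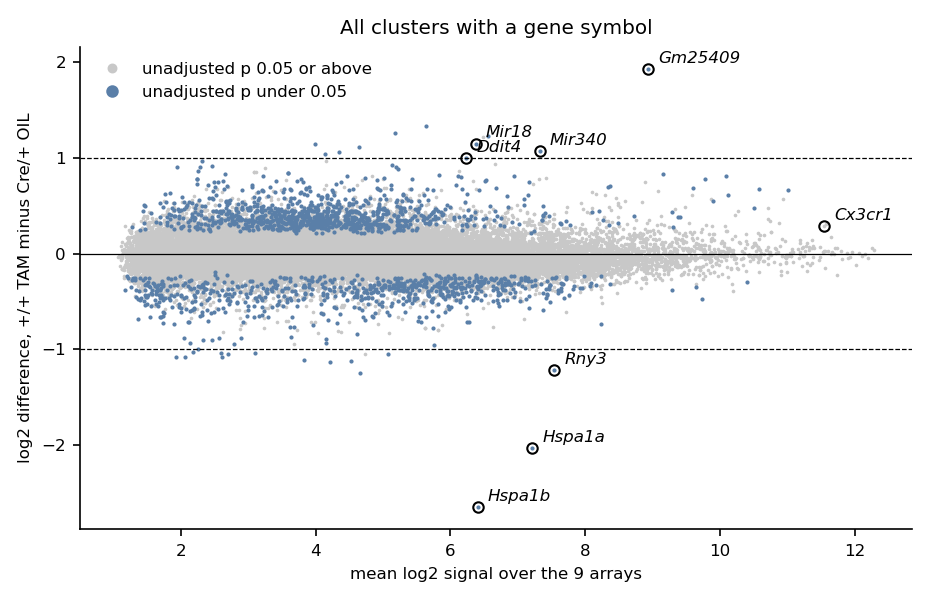
Each point is 1 of 32471 transcript clusters, with the mean log2 signal over the 9 arrays on the horizontal axis and the log2 difference, +/+ TAM minus Cre/+ OIL, on the vertical axis. Blue points have an unadjusted p under 0.05, dashed lines mark a 2-fold difference, and circles mark named genes. *Hspa1b* at -2.65 and *Hspa1a* at -2.03 lie farthest below 0 and *Gm25409* at 1.93 farthest above, and no cluster passed after adjustment.

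A pair of heat shock genes gave the largest log2 differences. Heat shock proteins are chaperones that hold or refold damaged proteins, and their genes are switched on within minutes by stress through the heat shock factor, which binds inverted repeats of GAA in promoters. *Hspa1a* and *Hspa1b* encode the inducible Hsp70 and are near-identical copies, so their array signals cannot be taken as fully separate. The RefSeq windows of 250 bases before to 50 after their starts (GRCm38.p6, minus strand of chromosome 17) are shown because the largest lower clusters are this gene pair. They differed at 4 of 300 bases. Capitals mark the match to GAANNTTC or TTCNNGAA, each of which reads the same on both strands. It was found once in each, beginning 104 bases before the start, and 15.1% of 32851 promoter windows of the same length held either motif.
Hspa1a, chr17:34972107-34972406: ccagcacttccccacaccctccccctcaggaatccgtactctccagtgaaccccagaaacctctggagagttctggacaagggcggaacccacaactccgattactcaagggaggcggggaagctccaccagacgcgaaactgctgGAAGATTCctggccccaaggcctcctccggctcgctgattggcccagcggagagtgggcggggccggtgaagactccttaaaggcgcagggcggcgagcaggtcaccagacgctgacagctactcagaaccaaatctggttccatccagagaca
Hspa1b, chr17:34959189-34959488: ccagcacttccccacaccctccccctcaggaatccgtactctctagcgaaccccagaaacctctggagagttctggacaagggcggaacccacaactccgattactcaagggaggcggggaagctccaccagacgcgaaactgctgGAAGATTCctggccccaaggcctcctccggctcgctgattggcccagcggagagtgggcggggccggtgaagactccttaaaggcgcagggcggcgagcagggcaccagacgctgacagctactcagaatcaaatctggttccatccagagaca

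*Hspa1a* had log2 signals of 9.13, 8.33 and 8.22 in the Cre/+ OIL mice OIL 1, OIL 2 and OIL 3, and 4.76, 6.84 and 7.65 (lowest, median and highest) in +/+ TAM. Every Cre/+ OIL mouse lay above every +/+ TAM mouse, and Cre/+ TAM mice ranged from 5.51 to 8.50. The difference was -2.03 (SE 0.63, 95% interval -3.36 to -0.71, limma, unadjusted p = 0.00475, adjusted p = 0.933). *Hspa1b* had 9.59, 9.27 and 5.65 in OIL 1, OIL 2 and OIL 3, and 4.59, 5.27 and 7.09 in +/+ TAM. Here OIL 3 fell inside the +/+ TAM range and the pair with neg lay above it. The difference was -2.65 (SE 0.80, unadjusted p = 0.00427, adjusted p = 0.933), and it was 0.06 with the arrays with neg left out. The +/+ TAM array with neg, TAM 3, had the lowest signal of its group for both genes (4.76 and 4.59). The part of neg in these differences was not tested further.

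Of 20 heat shock and unfolded protein genes, 0 were called and 3 had an unadjusted p under 0.05, all lower in +/+ TAM, against 2.29% lower and 3.01% higher of 30884 genes. The median difference was -0.17, against 0.01 over all genes, and it was -0.03 without OIL 2, -0.10 without TAM 2, -0.10 without TAM 4 and -0.28 without OIL 1. The third was *Hsph1*, a partner of Hsp70 that exchanges its nucleotide, with 6.14, 7.79 and 6.36 in OIL 1, OIL 2 and OIL 3 and 5.56 to 6.33 in +/+ TAM (difference -0.72, SE 0.29). *Stip1*, which links Hsp70 to Hsp90 and was chosen after its values were seen, had 7.55, 8.36 and 7.39 against 6.84 to 7.45 (difference -0.59, SE 0.18). For both genes OIL 2 was the highest of the 9, and without it the differences were -0.21 for *Hsph1* and -0.30 for *Stip1*.

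Glucocorticoid-responsive genes lay mostly on the other side. These genes are induced when the glucocorticoid receptor is bound by corticosterone, the stress steroid of mice. Of 15 members, 0 were called, 3 were higher in +/+ TAM at an unadjusted p under 0.05 and 0 lower, against 3.01% higher and 2.29% lower of all genes, and the median difference was 0.23. That median was 0.02 without OIL 1, 0.07 without OIL 2, 0.08 without TAM 1, 0.43 without OIL 3 and -0.13 with the arrays with neg left out. *Hif3a*, a hypoxia-inducible factor subunit, had 4.69, 4.24 and 4.34 in OIL 1, OIL 2 and OIL 3 and 4.67, 4.96 and 5.23 in +/+ TAM (difference 0.53, SE 0.16, unadjusted p = 0.00408, adjusted p = 0.933). *Ddit4*, an inhibitor of mTOR signalling, had 6.22, 4.50 and 5.96 and 5.56, 6.58 and 7.51 (difference 1.00, SE 0.37). *Zbtb16*, a transcription factor, had 5.37, 4.39 and 4.96 and 4.94, 5.59 and 6.31 (difference 0.78, SE 0.36). The groups overlapped for each of the 3, and OIL 2 was the lowest of the 9 for each. *Fkbp5*, a chaperone of the receptor itself, was chosen after its values were seen. It had 7.07, 6.39 and 6.72 against 6.61 to 7.57 (difference 0.46, SE 0.22, limma, unadjusted p = 0.0514, adjusted p = 0.933). Without OIL 2 the differences were 0.47 for *Ddit4* and 0.29 for *Fkbp5*.

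**Figure D2:**
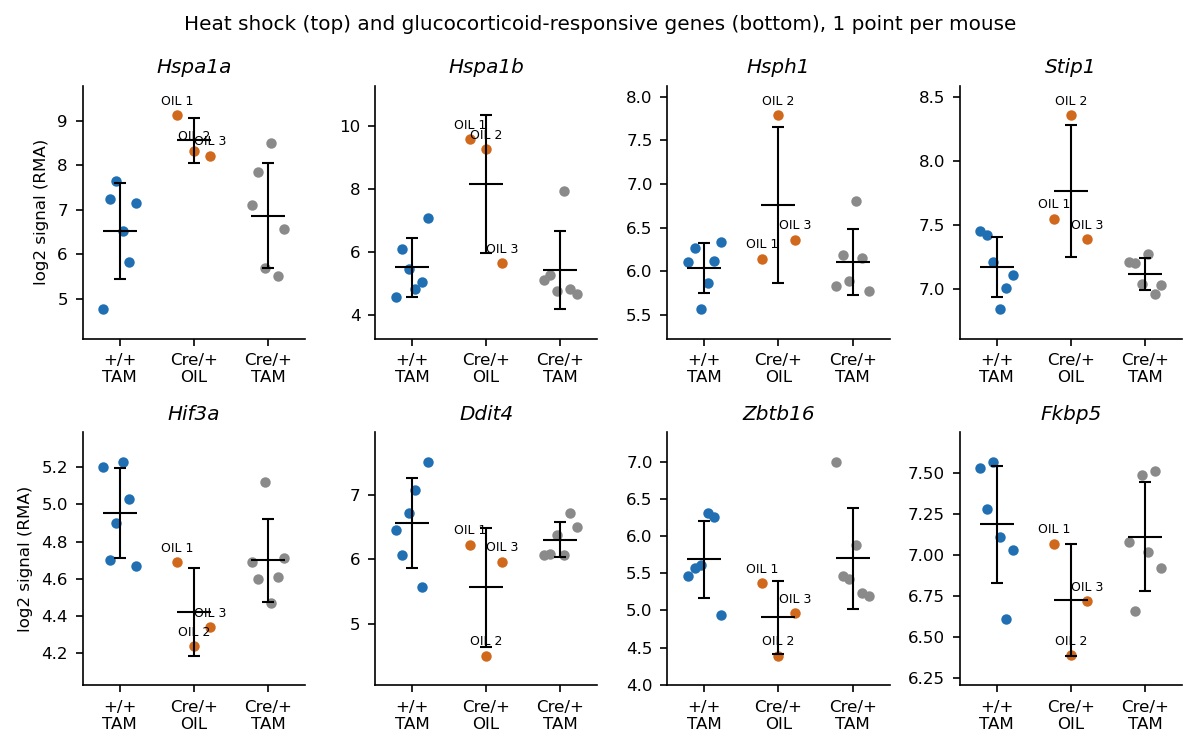
Log2 signals of 4 heat shock genes (top) and 4 glucocorticoid-responsive genes (bottom), 1 point per mouse, with the mean as a bar and the SD as whiskers; labels mark the Cre/+ OIL mice. The 3 Cre/+ OIL mice lie above all +/+ TAM mice for *Hspa1a* alone, and OIL 2 is highest for *Hsph1* and *Stip1* and lowest for the bottom genes.

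Immediate early genes, which are transcribed within minutes of a stimulus and respond to the handling of cells, gave no difference past the test. Their 24 members had a median difference of 0.19, and 0 had an unadjusted p under 0.05. That median rested on single mice: it was -0.09 without OIL 1, -0.06 without OIL 2, 0.05 without TAM 1, 0.33 without TAM 3, 0.79 without OIL 3 and -0.80 with the arrays with neg left out. The mean of the list was 6.90 in OIL 1, 6.90 in OIL 2 and 8.52 in OIL 3. In +/+ TAM it was 6.95 in TAM 3 and 7.50 to 8.38 in the others. The 3 arrays with neg were thus the 3 lowest, and the 12 other arrays of the study ranged from 7.38 to 8.52. *Egr1*, a zinc finger factor chosen after its values were seen, had 8.06 and 8.45 in OIL 1 and OIL 2, 8.63 in TAM 3, and 10.98 in OIL 3. Its difference was 0.49 (SE 0.51), and -0.46 with neg as a block. *Ier2*, also chosen after its values were seen, gave 0.43 (SE 0.53) and -0.56 with that block, and *Btg2*, an antiproliferative factor, 0.57 (SE 0.32) and -0.03. The nuclear RNA *Neat1*, also chosen after its values were seen, had 7.24, 7.68 and 8.78 in OIL 1, OIL 2 and OIL 3, 7.96 in TAM 3 and 8.54 to 8.98 in the 5 other +/+ TAM mice.

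Small RNA genes made up most of the clusters past the 2-fold threshold. By RefSeq type, 19 of the 26 were miRNA, snoRNA, snRNA or Y RNA genes, which are 6.57% of all clusters, and 3 were protein-coding. The clusters of small RNA genes had a median SE of 0.20, against 0.15 for protein-coding genes, and 13 of the 26 had a mean log2 signal under 5 in both groups. The deposited annotation gives each cluster a type of cross-hybridisation, the binding of probes to other transcripts. It was 3 for *Gm25409* and *Mir18* and 1 for *Snord61*, *Rny3* and *Mir340*, and its part in the differences was not tested. In 3 of the 26 the groups did not overlap. Over all clusters the groups lay apart with +/+ TAM higher in 1.21% and lower in 0.742%. The largest higher difference was that of the snoRNA *Gm25409*, with 5.57, 8.08 and 9.28 in OIL 1, OIL 2 and OIL 3 and 8.98, 9.49 and 10.70 in +/+ TAM (difference 1.93, SE 0.57, unadjusted p = 0.00354, adjusted p = 0.933), and it was 0.89 without OIL 1 and 2.75 without OIL 3. *Snord61* had 2.70, 5.06 and 6.50 against 5.82 to 6.37, with OIL 3 above the +/+ TAM range and the others below it, and its difference was 0.31 without OIL 1 and 2.21 without OIL 3. *Rny3*, a Y RNA, had 8.40, 8.75 and 7.91 against 6.17 to 7.97.

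Among these were precursors of miRNAs, short RNAs that pair with messenger RNAs through their seed, bases 2 to 8. The mature 5′ sequences (RefSeq, GRCm38.p6) are given with the seed in capitals, since the precursors of miR-18a and miR-340 were higher past the 2-fold threshold and those of miR-17 and miR-20a belong to the same transcript as miR-18a. miR-17, miR-18a and miR-20a come from 1 polycistronic transcript, *Mir17hg*, on chromosome 14, and miR-17 and miR-20a share a seed.
miR-17-5p: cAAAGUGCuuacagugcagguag
miR-20a-5p: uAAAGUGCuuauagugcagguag
miR-18a-5p: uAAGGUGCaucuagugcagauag
miR-340-5p: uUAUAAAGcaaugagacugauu

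The cluster of *Mir18* had log2 signals of 4.73, 5.52 and 6.56 in OIL 1, OIL 2 and OIL 3, and 6.41, 6.59 and 7.48 in +/+ TAM (difference 1.15, SE 0.29, unadjusted p = 0.001, adjusted p = 0.933). *Mir17* had 5.04, 5.41 and 6.44 against 6.05, 6.31 and 7.05 (difference 0.80, SE 0.26). *Mir20a* had 3.52, 4.70 and 5.54 against 5.18, 5.42 and 5.91 (difference 0.91, SE 0.32). For all 3 precursors OIL 1 and OIL 2 lay below every +/+ TAM mouse and OIL 3 lay within the +/+ TAM range. The precursor *Mir19a* of the same transcript was near the lower end of the signals in both groups (1.74 to 1.95 and 1.84 to 2.68). The 3 clusters of the host transcript disagreed, with differences of -0.11 for the brightest, 0.77 and 0.47. *Mir340*, on chromosome 11, had 6.14, 6.74 and 6.95 in Cre/+ OIL and 6.82, 7.69 and 8.38 in +/+ TAM (difference 1.07, SE 0.27, unadjusted p = 0.00113). OIL 1 and OIL 2 lay below every +/+ TAM mouse, and OIL 3 lay above only the lowest of them. The third miRNA gene higher past the threshold, *Mir1949*, had 3.94, 3.21 and 2.52 in OIL 1, OIL 2 and OIL 3 and 3.29, 4.53 and 5.04 in +/+ TAM (difference 1.15, SE 0.40), so here OIL 3 was the lowest. Without OIL 1 the differences were 0.72 for *Mir18*, 0.50 for *Mir17*, 0.37 for *Mir20a* and 0.84 for *Mir340*, and without OIL 3 they were 1.63, 1.20, 1.38 and 1.24, in the same order. Without OIL 3 *Mir1949* gave 0.80. The arrays read precursor or host RNA in amplified total RNA, and the mature miRNAs were not measured. *Mir181a-1* was lower on average, with 1.21, 3.80 and 2.94 in Cre/+ OIL against 1.37 to 1.74, and its difference was -0.51 without OIL 2 and -1.80 without OIL 1.

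**Figure D3:**
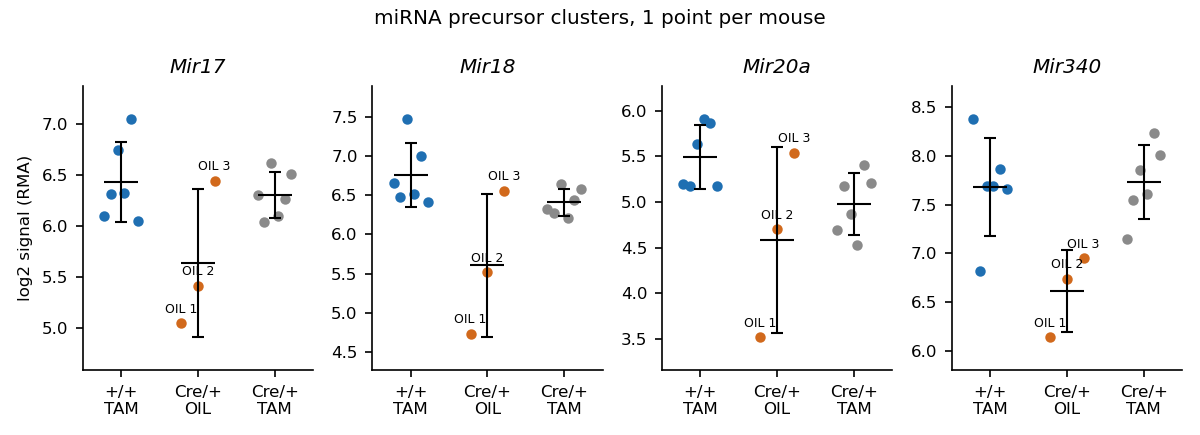
Log2 signals of 4 miRNA precursor clusters, 1 point per mouse, with the mean as a bar and the SD as whiskers; labels mark the Cre/+ OIL mice. OIL 1 and OIL 2 lie below every +/+ TAM mouse in all panels, and OIL 3 lies within the +/+ TAM range.

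*Cx3cr1*, which carries the knock-in in 1 copy in Cre/+ OIL and in none in +/+ TAM, was close in signal. Its cluster lies on chromosome 9 from 120048693 to 120068282 by the deposited annotation (build not given in the sources used here). It had log2 signals of 11.15, 11.39 and 11.53 in the Cre/+ OIL mice OIL 1, OIL 2 and OIL 3, and 11.39, 11.71 and 11.82 (lowest, median and highest) in +/+ TAM. The groups overlapped. The mean of Cre/+ OIL was 11.36 ± 0.19 (SD, n = 3). It was 11.64 ± 0.17 (SD, n = 6) for +/+ TAM. Cre/+ TAM, set alongside, had 11.21 ± 0.26 (SD, n = 6). The difference of 0.29 had a 95% interval of -0.03 to 0.60, which excludes a 2-fold difference (limma, unadjusted p = 0.0759, adjusted p = 0.933). The exact permutation test over the mice (two-sided) gave p = 0.119, where the smallest p possible was 0.0238. Which part of the gene its 19 probes cover, and whether the knock-in copy yields RNA that they bind, was not tested. *Tgfbr2*, floxed in all mice, had 7.94, 8.32 and 8.49 against 7.91 to 8.26 (difference -0.13, SE 0.13).

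The other microglia core genes gave no difference past the test. The study lists them as microglia-specific. Over all 8 core genes, *Cx3cr1* included, the median was -0.03, and 0 had an unadjusted p under 0.05. The intervals of all 8 lay within 1, as did those of 97% of all clusters. *P2ry12*, a purinergic receptor, gave -0.02 (95% interval -0.28 to 0.24), and *Csf1r*, the survival receptor, 0.08 (-0.17 to 0.32). *Siglech* gave 0.04 (SE 0.15) and *Olfml3* -0.03 (SE 0.17). *Fcrls* gave -0.24 (SE 0.14), *Tmem119* -0.25 (SE 0.23) and *Sall1*, a transcription factor of microglia, -0.21 (SE 0.14). In Cre/+ OIL the signals of these other genes were 8.12 to 11.44 and in +/+ TAM 7.39 to 11.48, so they were read in every mouse. Of 36 further homeostatic genes, 1 was lower at an unadjusted p under 0.05, against 2.29% lower of all genes. It was *Irf8*, a transcription factor of the lineage, with 7.92, 7.83 and 7.88 against 7.13, 7.45 and 7.84 (difference -0.41, SE 0.16). *Renbp*, chosen after its values were seen, had 7.07, 7.17 and 7.06 in Cre/+ OIL, each above the +/+ TAM range of 6.34 to 6.80 (difference -0.49, SE 0.13, unadjusted p = 0.00124, adjusted p = 0.933).

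**Figure D4:**
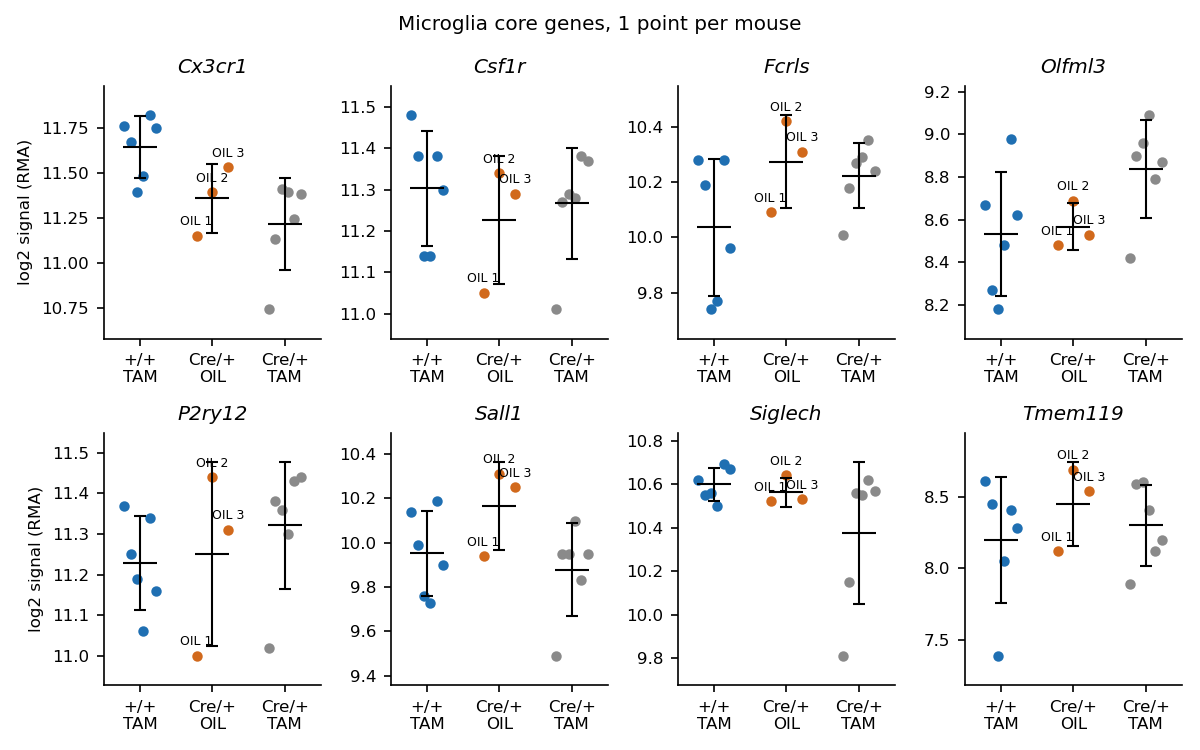
Log2 signals of the 8 microglia core genes, 1 point per mouse, with the mean as a bar and the SD as whiskers; labels mark the Cre/+ OIL mice. The 2 control groups overlap for every gene, *Cx3cr1* included.

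Genes flanking the knock-in were read because DNA around a knock-in can come from another strain. Within 5 Mb of *Cx3cr1*, 143 other genes were measured, with a median difference of 0.02, and *Tgfbr2* lay 3.96 Mb away. Of these, 0 were called, 9 (6.29%) had an unadjusted p under 0.05 with +/+ TAM higher and 2 (1.4%) lower, against 3.01% and 2.29% of all genes. In 2 of the 143 the groups lay apart, both higher in +/+ TAM, against 1.21% higher, 0.764% lower and 1.98% in either direction of all genes. The intervals of all 143 lay within 1, as did those of 97% of all clusters. The 3 nearest genes on either side gave -0.05 for *Ttc21a*, 0.05 for *Csrnp1*, 0.17 for *Xirp1*, 0.00 for *Ccr8*, a chemokine receptor, 0.10 for *Slc25a38* and 0.09 for *Rpsa*, a ribosomal protein (SE 0.12 to 0.35). None of these 6 exceeded the spread between mice.

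**Figure D5:**
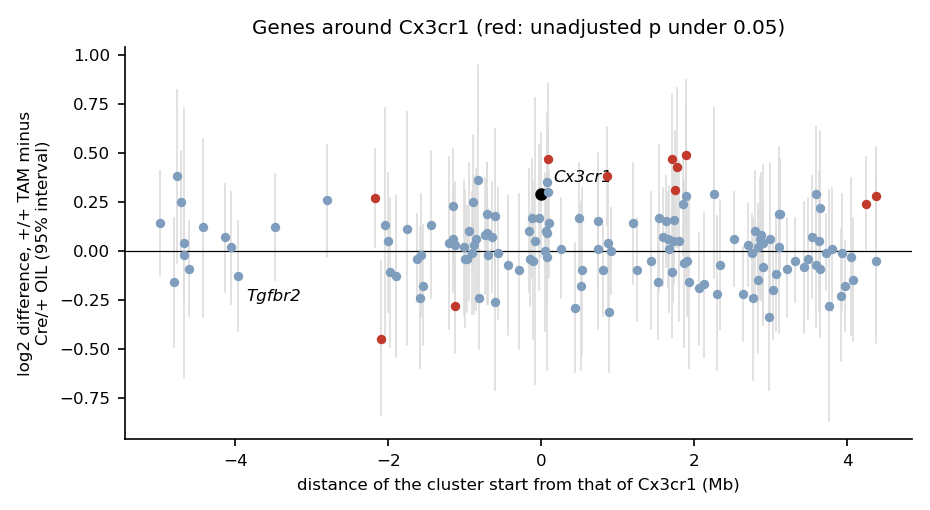
Log2 difference, +/+ TAM minus Cre/+ OIL, of each gene within 5 Mb of *Cx3cr1* with its 95% interval, by the distance of its start from that of *Cx3cr1*. Red points have an unadjusted p under 0.05; differences run from -0.45 to 0.49 with no called gene.

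Pathways that tamoxifen is known to touch gave no call. Of 22 estrogen receptor genes, 0 had an unadjusted p under 0.05 (median 0.03). *Esr1*, the receptor itself, gave -0.17 (SE 0.13), *Pgr*, the progesterone receptor and a classical target, 0.21 (SE 0.12), and *Gper1*, a membrane estrogen receptor, 0.28 (SE 0.17). All 22 intervals lay within 1, as did those of 97% of all clusters. Of 27 cholesterol synthesis and uptake genes, 1 was lower at an unadjusted p under 0.05 (median -0.01), against 2.29% lower of all genes. It was *Fdps*, which makes farnesyl diphosphate, with 5.79, 4.93 and 5.22 against 4.56, 4.81 and 5.20 (difference -0.51, SE 0.18, and -0.27 without OIL 1). Of 20 cholesterol efflux and lipid genes and 23 p53 and DNA damage genes, 0 and 0 did (medians -0.04 and 0.03).

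Immune lists were mostly slightly below 0, and so were some other lists. Medians were -0.11 for respiratory chain genes and -0.07 for further homeostatic microglia genes. Of 52 interferon-stimulated genes, 0 were called and the median was -0.11, against 0.01 over all genes. At an unadjusted p under 0.05, 2 were lower and 0 higher, against 2.29% lower and 3.01% higher of all genes. The 2 lower ones were *Igtp*, with 7.29, 7.32 and 6.86 against 6.13, 6.67 and 7.13 (difference -0.48, SE 0.19), and *Gbp5* (difference -0.35, SE 0.15), both GTPases induced by interferon. In 11 MHC class II genes, 17 MHC class I genes, 28 TGF-beta pathway genes, 31 NF-kB targets and cytokines and 28 Fc receptor and phagocytosis genes, 0 had an unadjusted p under 0.05, with medians of -0.18, -0.09, -0.05, -0.01 and -0.09. With each mouse left out in turn, the medians ranged from -0.19 to -0.02 for the interferon list, -0.27 to -0.02 for MHC class II and -0.20 to 0.18 for NF-kB targets and cytokines. The peptide-loading gene *H2-DMb2* gave -0.54 (SE 0.27). By the same measure, 1 of 24 disease-associated microglia genes was higher, *Gpnmb* (difference 0.39, SE 0.18), and of 28 cell cycle genes 1 was higher, the kinase *Plk1* (0.38, SE 0.14). Chemokine receptors and the fractalkine axis (20 genes, median -0.02, 1 higher), clock genes (18, -0.05, 0) and respiratory chain genes (26, -0.11, 0) completed the lists.

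Markers of other cells were measured in the same way, and 0 were called. At an unadjusted p under 0.05 there were 1 of 18 border-associated macrophage markers (*Cd209b*, 0.47), 0 of 16 monocyte and 0 of 14 neutrophil markers. There were also 1 of 9 B cell and 2 of 9 dendritic cell markers, and of 18 T and NK cell markers 0 were called. For 12 neuron, 10 astrocyte, 12 oligodendrocyte, 14 endothelial and mural and 5 red blood cell markers the counts were 0, 0, 1 (*Olig2*, 0.35), 1 (*Abcb1a*, 0.32) and 0, with medians of 0.16, 0.17, 0.06, 0.11 and 0.16. Their list means lay between 3.86 and 4.86 on the log2 scale over the 9 mice. The neutrophil genes *S100a9*, *Camp* and *Ngp* gave differences of -0.56 (SE 1.07), -0.72 (SE 0.58) and -0.37 (SE 0.55), and each lay above 0 without OIL 3. Sex genes gave 0 of 5.

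The clusters with the smallest p were mostly dim. Among the 10 higher ones were *Gm5784*, with 3.21, 3.31 and 3.05 in Cre/+ OIL and 3.69, 3.77 and 4.12 in +/+ TAM (difference 0.66, SE 0.12, unadjusted p = 2.75e-05, adjusted p = 0.758), the snoRNA *AF357425* (0.75, SE 0.15) and *Spin2c* (0.64, SE 0.13), a relative of the histone reader spindlin. Groups did not overlap for any of these 3, against 1.21% of all clusters lying apart with +/+ TAM higher. Clusters picked by the smallest p tend to lie apart, so this adds no separate support. A second cluster of *Gm5784* gave -0.18. Among the 10 lower ones, picked in the same way, were *LOC102634319* (-0.63, SE 0.13), *Spin2f* (-0.55, SE 0.14), *Nfatc2ip* (-0.66, SE 0.15), *Hic1*, a transcriptional repressor (-0.46, SE 0.11), and *Gstcd* (-0.56, SE 0.14), with no overlap in any, against 0.742% of all clusters. Values within the lower range of animal numbers, 3 mice against 3, were -0.81, -0.63, -0.76, -0.50 and -0.49, in the same order.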

How the data were processed

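RNA of sorted microglia was amplified, labelled and hybridised to 1 array per mouse by the authors, who deposited log2 signals normalized by RMA (background correction, alignment of arrays by quantiles and summary of probes per transcript cluster); software and genome build: not given in the sources used here. Not used were the deposited fold changes and p-values of the authors. Of 34390 clusters, 32471 had a symbol and were tested, and 128 of these had several symbols and were not named. A second deposited table of log2 values differed by at most 0.005. Groups came from the labels.

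A linear model with 1 mean for each group and no covariate was fitted with limma 3.58.1 (lmFit, eBayes; R 4.3.3) to the 15 arrays, and +/+ TAM minus Cre/+ OIL was tested two-sided, with Benjamini-Hochberg adjustment over the tested clusters and calls at an adjusted p under 0.05. For the 20 gene lists and 12 marker lists, the brightest cluster stood for each of 30884 genes. The fit was tested on simulated data. The methods of the study say that controls were littermates, but the labels do not give the litter of a mouse. Litter therefore did not enter the model. The p-values rest on the spread between these mice within the 3 groups, Cre/+ TAM included. The precision is limited by the number of arrays.

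The members, lists and tests were chosen with earlier results of these data known. Named were the 10 clusters with the smallest p in each direction (some left out here), the 2 members of each list with the smallest p (some left out), the core genes, *Tgfbr2* and the 3 genes on either side of *Cx3cr1*; other genes, such as those of the small RNA, neutrophil and *Mir17hg* sets, were chosen after their values were seen. RefSeq types matched 26507 clusters by symbol. Alternatives were the 9 arrays alone, quantile normalization, median centring, the second table, array weights, eBayes with a trend and robust, bright clusters only, 1 cluster per gene, the addition of clusters that have no symbol, the animal number range as a block or its low range alone, the arrays with neg left out or neg as a block, the methods' unpaired test, and leaving out each of the 9 arrays. Leaving out OIL 3 and TAM 2 was added after seeing the data.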

Additional observations from a re-analysis of the deposited data

Results flagged for a closer look

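In 69 single genes examined, +/+ TAM was searched for a mouse set far from the other 5; chance flags about 1 in 20 groups. For 3 genes the gap, as a share of the range of the group, exceeded Dixon's 95% critical value. *Ngp*, a neutrophil granule protein, had a log2 signal of 6.29 in TAM 2 and at most 4.80 in the others, and TAM 2 also had the highest neutrophil list mean of its group (5.50). *Per1*, a clock gene, had 9.25 in TAM 1 and at most 8.69 in the others. *Spin2f* had 3.26 in TAM 5 and at most 2.83 in the others. The groups of 3 Cre/+ OIL mice were not searched.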

How the results depend on the processing

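Apart from the arrays with neg left out, every alternative gave 0 calls in both directions; with those arrays left out, 0 were higher and 3 lower, from 1 Cre/+ OIL mouse assumed to vary like the other groups. The clusters past the 2-fold threshold numbered 23 higher with the animal number range as a block, 19 higher within the lower range of animal numbers, 16 higher with neg as a block, 5 higher in the methods' unpaired test and 5 lower among clusters above the median signal. They numbered 54 higher and 54 lower with the arrays with neg left out, and 83 higher and 51 lower without OIL 3 and TAM 2, a setting added after seeing the data. With each mouse left out in turn they ranged from 9 to 87 higher and from 11 to 40 lower, both highest without OIL 3. The median around *Cx3cr1* was -0.03 after median centring, and 0 to 0.05 with each mouse left out. *Cx3cr1* kept its direction in all 24 settings, at 0.09 to 0.42 (adjusted p 0.49 to 1). The causes were not tested.

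None of 69 single genes examined, *Cx3cr1* included, was called in the analysis reported; the other alternatives in which a sign turned were these. After median centring *Siglech* gave -0.02 and *Csrnp1* -0.01. With the range as a block *Siglech* gave -0.12 and *Ccr8* 0.01, and within the lower range of animal numbers *P2ry12* and *Ccr8* gave 0.02 and 0.02. With the arrays with neg left out the values were -0.02 for *Csf1r*, 0.17 for *Ttc21a*, -0.83 for *Csrnp1*, 0 for *Xirp1*, -0.38 for *Rpsa*, 0.06 for *Hspa1b*, -0.6 for *Per1*, -0.42 for *Snord61*, 0 for *Gbp5*, -0.51 for *Btg2*, -1.12 for *Egr1*, -1.15 for *Ier2* and -0.04 for *Neat1*. With neg as a block they were 0.03 for *Olfml3*, 0.01 for *P2ry12*, -0.46 for *Csrnp1*, -0.16 for *Rpsa*, -0.03 for *Btg2*, -0.46 for *Egr1* and -0.56 for *Ier2*. Without OIL 3 and TAM 2 they were 0.02 for *Olfml3*, 0.02 for *P2ry12*, 0.03 for *Tgfbr2*, 0.1 for *Ccr8*, 0.11 for *Mir17hg*, 0.75 for *S100a8*, 0.6 for *S100a9*, 0.13 for *Camp*, 0.46 for *Ngp*, 0.05 for *Ly6c2* and 0.06 for *Gm11505*. With each mouse left out in turn, the genes that turned ranged from -0.01 to 0.13 for *Csf1r*, -0.12 to 0.04 for *Olfml3*, -0.15 to 0.07 for *P2ry12*, -0.18 to 0.07 for *Ttc21a*, -0.29 to 0.55 for *Csrnp1*, -0.15 to 0.13 for *Ccr8*, -0.03 to 0.2 for *Slc25a38*, -0.06 to 0.36 for *Rpsa*, -0.26 to 0.03 for *Mir17hg*, -0.06 to 1.4 for *Egr1*, -0.09 to 1.34 for *Ier2*, -1.5 to 1.6 for *S100a8*, -1.54 to 1.29 for *S100a9*, -1.34 to 0.41 for *Camp*, -0.93 to 0.73 for *Ngp*, -1.23 to 0.07 for *Ly6c2* and -1.72 to 0.12 for *Gm11505*. No paired analysis was possible because the labels give no replicate numbers that the groups share. The number of arrays, 3 in Cre/+ OIL, limits the precision.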
